A study of Mus musculus with 20 samples.

Results

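The core circadian clock genes were described in lumbar dorsal root ganglia, which hold the cell bodies of sensory neurons. The set held 10 genes, taken by symbol: the activators Arntl (also named Bmal1), Clock and Npas2, the repressors Per1, Per2, Per3, Cry1 and Cry2, and the nuclear receptors Nr1d1 and Nr1d2. They were 10 of 78258 genes in the deposited table, and all 10 were among the 28564 genes that passed the filter on low counts. Ganglia of lumbar levels 4 to 6 were taken from 10 male mice, with 1 library from the side contralateral and 1 from the side ipsilateral to a sciatic nerve transection, 1 day after the lesion. The 5 conditional knockout (cKO) mice carried Ahr fl/fl, floxed alleles of the aryl hydrocarbon receptor, with Thy1CRE-ERT2/EYFP, a tamoxifen-activated Cre recombinase and a yellow fluorescent protein driven by the Thy1 promoter, which is active in neurons. The protocol gives control mice as Ahr f/f or f/+, while the genotype field and library names of all 5 carry FF or ff and their titles read Wildtype, and none of the 5 is marked f/+. Both genotypes received tamoxifen, daily for 5 days at 100 mg/kg, when 17 weeks old, and were lesioned 4 weeks later, so that every mouse was injured and the contralateral ganglia came from injured animals. All ganglia were dissociated between ZT 2 and 4, where ZT 0 is the time the light turns on, and no time per mouse was given. Values are given in CPM, counts scaled to a fixed library total, after TMM scaling, a factor per library that removes differences in composition. The 5 control mice are always listed in the order H62, H63, H65, H96 and H97, and the 5 cKO mice in the order H61, H64, H95, H99 and H100.

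The clock is a feedback loop that runs in nearly every cell. ARNTL pairs with CLOCK or its relative NPAS2 and activates genes with E-boxes, among them the Period (Per) and Cryptochrome (Cry) genes, whose proteins return to the nucleus and repress that pair. The same pair drives Nr1d1 and Nr1d2 (also named Rev-erb alpha and beta), which repress Arntl at sites shared with the activating ROR receptors, so Arntl RNA peaks when Nr1d1 and Per RNA are low. The aryl hydrocarbon receptor belongs to the same protein family as ARNTL and CLOCK and acts with the partner ARNT, and Per1 is also known as an early response gene and a target of glucocorticoids.

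Promoter sequences were read to show which of the known clock elements stand next to the start sites of these genes. RefSeq windows on GRCm38.p6, from 250 bases before to 50 bases after a start site, were found for 9 of the 10 genes, as 13 windows, because some genes have several starts. The elements were searched on both strands. The E-box CACGTG was in windows of 2 clock genes and in 7.15% of all 32851 windows. The D-box, TTATGTAA or TTACGTAA, was in 1 clock gene and in 1.06% of windows, and the ROR response element, the site of NR1D1 and NR1D2, was in 1 clock gene and in 0.384% of windows. The cyclic AMP element TGACGTCA was in 0 of the 9 genes and in 1.79% of windows. The aryl hydrocarbon receptor core GCGTG, a short motif, was in 8 of the 9 genes, counted over all their windows, and in 32.4% of windows. A gene was counted if any of its windows held the element, so counts of genes and shares of windows are unlike units. The 4 windows shown are those that hold a clock element, each written 5′ to 3′ on the strand of its gene with the element in capitals. They are chr11:69098699-69098998 (plus strand, Per1), chr10:85185005-85185304 (minus strand, Cry1), chr4:151044616-151044915 (minus strand, Per3) and chr7:113207261-113207560 (plus strand, the second start of Arntl). The E-box began 166 bases before the start in Per1 and 60 bases before it in Cry1, the D-boxes 205 and 158 bases before the start in Per3, and the ROR element of Arntl at base 27 of the transcript. None of these elements overlapped another.
Per1 promoter: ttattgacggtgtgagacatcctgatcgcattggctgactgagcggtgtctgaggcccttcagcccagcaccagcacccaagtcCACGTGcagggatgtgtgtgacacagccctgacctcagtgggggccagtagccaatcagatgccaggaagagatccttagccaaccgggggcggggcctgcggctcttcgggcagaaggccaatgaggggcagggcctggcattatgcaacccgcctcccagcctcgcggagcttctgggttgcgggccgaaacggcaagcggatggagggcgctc
Cry1 promoter: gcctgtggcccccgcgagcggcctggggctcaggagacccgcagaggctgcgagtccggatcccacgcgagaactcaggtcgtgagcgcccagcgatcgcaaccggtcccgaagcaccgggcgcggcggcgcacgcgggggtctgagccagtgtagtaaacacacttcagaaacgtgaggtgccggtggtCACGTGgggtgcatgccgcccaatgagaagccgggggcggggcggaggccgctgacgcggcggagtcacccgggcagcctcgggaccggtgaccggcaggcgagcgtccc
Per3 promoter: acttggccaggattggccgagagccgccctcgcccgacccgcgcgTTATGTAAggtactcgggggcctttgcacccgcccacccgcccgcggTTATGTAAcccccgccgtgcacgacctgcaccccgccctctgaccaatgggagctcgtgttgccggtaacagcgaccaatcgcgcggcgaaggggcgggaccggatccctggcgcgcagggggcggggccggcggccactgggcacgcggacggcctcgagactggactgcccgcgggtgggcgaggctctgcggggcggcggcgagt
Arntl promoter: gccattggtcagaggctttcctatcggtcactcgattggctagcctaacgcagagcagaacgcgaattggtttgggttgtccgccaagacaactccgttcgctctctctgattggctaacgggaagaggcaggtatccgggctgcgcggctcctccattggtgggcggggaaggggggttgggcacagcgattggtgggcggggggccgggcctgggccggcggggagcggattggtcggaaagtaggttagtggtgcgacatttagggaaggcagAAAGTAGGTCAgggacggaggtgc
A match says only that the letters are present.

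The 20 libraries held 76150333 to 118537209 counts, and replicate mice differed by more than counting error. The ganglion label was checked on marker genes: 7 sensory neuron markers summed to 6244 to 7473 CPM per library, while 3 spinal cord markers summed to at most 0.154 CPM. Ahr, the targeted gene, was at 21.3, 24.6, 23.8, 27.2 and 24.4 CPM in the contralateral control libraries and at 20.4, 21.0, 20.5, 20.4 and 19.5 CPM in the contralateral cKO libraries. The difference was -0.25 on the log2 scale (SE 0.0661, edgeR adjusted p = 0.103), without overlap but not past the threshold, in whole ganglia, which also hold cells where the Thy1 promoter is not active. On the ipsilateral side Ahr ranged from 30.2 to 38.1 CPM in control and 28.9 to 36.8 CPM in cKO libraries, with wide overlap and a log2 difference of -0.11 (SE 0.0655, edgeR adjusted p = 1.00), so its level did not separate the genotypes there. Muscle markers were uneven, at 1216 CPM in the contralateral library of cKO mouse H100, 473 CPM in the ipsilateral library of control mouse H65 and 245 CPM in the contralateral library of control mouse H62. Fibroblast markers summed to 487 to 803 CPM in contralateral control libraries and 563 to 1182 CPM in contralateral cKO libraries, with medians of 499 and 873 CPM. On the ipsilateral side they summed to 525 to 874 CPM in control and 537 to 904 CPM in cKO libraries, with medians of 695 and 647 CPM. The median log2 fold change of the 5 fibroblast markers with injury was 0.29 in control mice, with 0 called, and -0.33 in cKO mice, with 1 called lower.

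Clock genes were expressed at very different levels. Per kilobase of merged exon, in contralateral control libraries, Cry2 stood highest at 17.9 ± 0.944 CPM per kilobase (SD, n = 5), followed by Nr1d1 at 15.8 ± 1.41 and Nr1d2 at 11.03 ± 0.311. Clock had 6.25 ± 0.228, Per1 5.24 ± 1.12 and Cry1 4.496 ± 0.345 CPM per kilobase. Per2 had 1.72 ± 0.401, Npas2 0.884 ± 0.0911, Per3 0.777 ± 0.140 and Arntl only 0.459 ± 0.101 CPM per kilobase. Arntl, whose loss alone is known to abolish daily rhythms, had the lowest mean level of the set in all 4 groups. The ranges of Cry2 and Nr1d1, of Clock and Per1, of Per1 and Cry1, and of Npas2 and Per3 overlapped in that group, and the other neighbours were separate. In contralateral cKO libraries Nr1d1 had 17.5 and Cry2 16.8 CPM per kilobase, again with overlapping ranges. On the ipsilateral side Per1 stood above Clock in both genotypes, at 8.83 against 6.61 CPM per kilobase in control mice and 8.999 against 6.64 in cKO mice, without overlap. Arntl overlapped Per3 on that side, at 0.336 to 0.635 against 0.506 to 0.868 CPM per kilobase in control mice. In cKO mice these ranges were 0.382 to 0.627 and 0.522 to 0.717. Arntl also overlapped Npas2 in ipsilateral control libraries, where Npas2 began at 0.614. The lengths came from GENCODE M21, and the annotation release of the counts was not given.

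**Figure D1:**
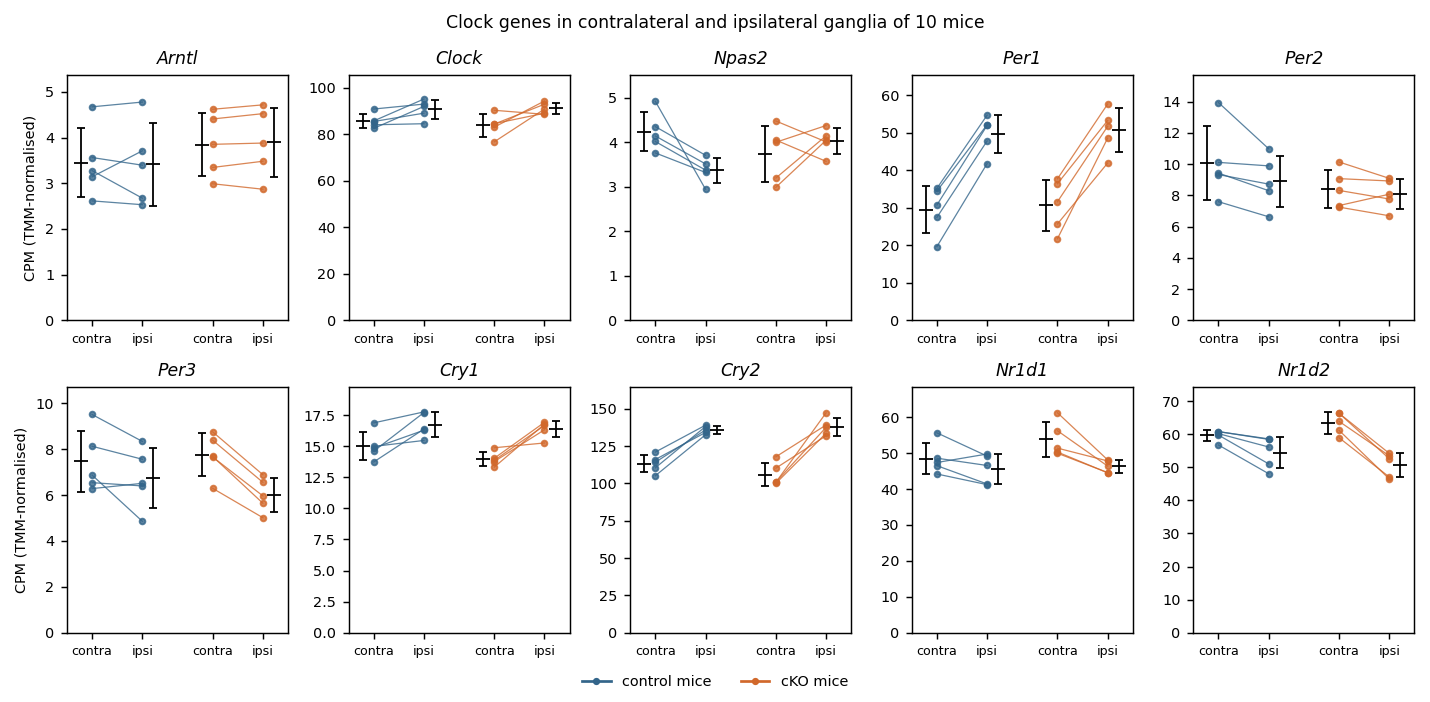
CPM (vertical axis, linear from 0, TMM-normalised) of the 10 clock genes in the contralateral (contra) and ipsilateral (ipsi) ganglia of 5 control and 5 cKO mice. Each point is 1 library, a line joins both sides of a mouse, and black marks give the group mean ± SD; the lines of Per1 and Cry2 slope upward in all 10 mice, while those of Arntl stay nearly flat in cKO mice and keep the order of the mice.

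Transection was followed within 1 day by higher Per1, Cry1 and Cry2 RNA in the ipsilateral ganglia of both genotypes. Per1 changed most, 1.69-fold in control and 1.65-fold in cKO mice, and Cry2 and Cry1 changed by at most 1.302-fold. Npas2 fell in control mice, and Nr1d1, Nr1d2 and Per3 fell and Clock rose in cKO mice, all by at most 1.29-fold. Arntl and Per2 were not called in either genotype. A gene was called at a Benjamini-Hochberg adjusted p under 0.05, from edgeR's quasi-likelihood test over all 28564 genes. In control mice 4 of the 10 clock genes were called, 3 higher and 1 lower, where 29.9% of all genes tested were called (13.8% higher and 16.0% lower). In cKO mice 7 of the 10 were called, 4 higher and 3 lower, against 31.3% of all genes (16.2% higher and 15.1% lower). The median log2 fold change of the 10 genes was -0.05 in control and 0.06 in cKO mice, and that of all genes -0.0047 and -0.03. In such whole-tissue RNA, fewer cells of a type and less RNA per cell cannot be told apart. The 4 satellite glia markers summed to 886 to 962 CPM in contralateral and 1077 to 1192 CPM in ipsilateral control libraries, and to 862 to 1068 and 1054 to 1094 CPM in cKO mice, and their part in the clock gene values was not tested.

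**Figure D2:**
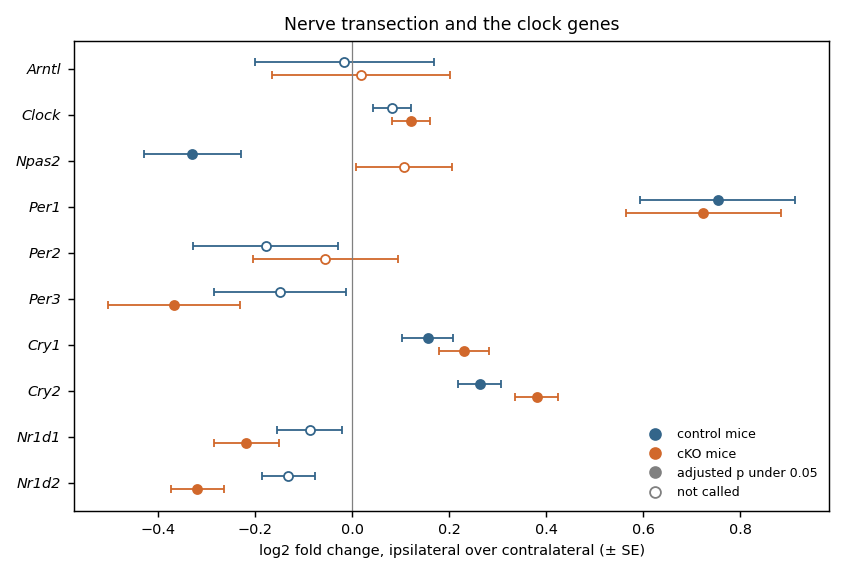
Log2 fold change, ipsilateral over contralateral, of each clock gene (horizontal axis; bars give ± SE) in control and cKO mice, from 1 edgeR fit of 20 libraries. Filled points passed an adjusted p of 0.05; Per1 lies farthest to the right in both genotypes, at 0.75 and 0.72, and Npas2 lies at -0.33 in control mice.

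Of the activators, Arntl showed no called change. Arntl (ENSMUSG00000055116.9) was at 3.28, 3.56, 2.61, 4.67 and 3.14 CPM contralateral and 2.67, 3.396, 2.53, 4.78 and 3.71 CPM ipsilateral in control mice. The cKO mice had 2.99, 3.35, 3.85, 4.62 and 4.41 CPM contralateral and 2.87, 3.48, 3.88, 4.72 and 4.52 CPM ipsilateral. The values of mice ranged widely within each group, whereas both sides of a cKO mouse were nearly equal, with log2 responses of -0.06 to 0.06. The fitted log2 fold change was -0.02 (SE 0.184, adjusted p = 0.963) in control and 0.02 (SE 0.183, adjusted p = 0.956) in cKO mice.

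Clock, the partner of ARNTL, was steady from mouse to mouse. Its RNA (ENSMUSG00000029238.12) was at 85.7, 82.5, 85.5, 84.1 and 90.9 CPM contralateral and 95.2, 92.0, 89.1, 84.5 and 92.98 CPM ipsilateral in control mice. In cKO mice the values were 84.4, 76.8, 83.1, 90.3 and 84.6 CPM contralateral and 92.9, 90.8, 94.3, 88.6 and 89.1 CPM ipsilateral. The sides overlapped in both genotypes, and 5 of 5 control and 4 of 5 cKO mice were higher on the ipsilateral side. Clock rose by 0.12 on the log2 scale in cKO mice (SE 0.0388, adjusted p = 0.0213), and the value in control mice was 0.08 (adjusted p = 0.125). In control mice Clock was called with the fibroblast markers as a covariate (0.11, adjusted p = 0.0318) and in a fit of only the compared libraries (0.10, adjusted p = 0.0465). The cKO call was lost without H61, H64 or H95 (adjusted p = 0.0662, 0.0970 and 0.0687) and with the fibroblast or muscle markers as a covariate (0.08 and 0.10, adjusted p = 0.113 and 0.0570). It was also lost on both FPKM scales (adjusted p = 0.0505 and 0.0537), which makes 7 of 22 alternatives.

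Npas2, which can take the place of Clock, fell on the lesioned side of control mice. Npas2 (ENSMUSG00000026077.16) was at 4.92, 4.14, 3.76, 4.35 and 4.01 CPM contralateral and 2.94, 3.51, 3.32, 3.70 and 3.37 CPM ipsilateral in control mice, lower in 5 of 5 mice and without overlap. In cKO mice it was at 4.05, 3.19, 2.99, 4.47 and 4.00 CPM contralateral and 3.57, 4.14, 4.04, 4.01 and 4.37 CPM ipsilateral, higher in 3 mice and lower in 2. The log2 fold change was -0.33 in control (SE 0.0999, adjusted p = 0.0155) and 0.11 in cKO mice (SE 0.0996, adjusted p = 0.462). Mouse H62 had the highest contralateral and the lowest ipsilateral control value, and without it the control value was -0.23 (adjusted p = 0.124).

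Among the repressors, Per1, a Period gene known to respond quickly to signals from outside the cell, had the largest response. In control mice Per1 (ENSMUSG00000020893.18) was at 34.5, 27.5, 30.8, 19.7 and 35.2 CPM contralateral and 52.2, 47.9, 52.0, 41.8 and 54.7 CPM ipsilateral. The cKO mice had 31.6, 21.8, 36.5, 25.7 and 37.8 CPM contralateral and 51.8, 48.6, 53.3, 42.0 and 57.7 CPM ipsilateral. All 10 mice were higher on the ipsilateral side and the sides did not overlap in either genotype, and the mice with the lowest contralateral values, H96 among controls and H64 and H99 among cKO mice, also had the lowest ipsilateral values. This was a log2 fold change of 0.75 in control (SE 0.159, adjusted p = 0.00135) and 0.72 in cKO mice (SE 0.159, adjusted p = 0.00182). Both calls held in each of the 22 alternatives run.

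Per2 and Per3 did not follow Per1. Per2 (ENSMUSG00000055866.10) was at 13.9, 9.33, 9.43, 7.59 and 10.1 CPM contralateral and 10.98, 8.72, 8.30, 6.63 and 9.89 CPM ipsilateral in control mice. In cKO mice it was at 9.07, 8.32, 10.1, 7.25 and 7.35 CPM contralateral and 8.92, 7.77, 9.09, 6.70 and 8.07 CPM ipsilateral. The sides overlapped widely, although 5 of 5 control and 4 of 5 cKO mice were lower on the ipsilateral side. The log2 fold change was -0.18 in control (SE 0.149, adjusted p = 0.422) and -0.06 in cKO mice (adjusted p = 0.828). With the mouse as a fixed replicate block the control value was -0.17 and was called (adjusted p = 0.0318), the only 1 of 22 alternatives to call it. With the mouse as a random effect in limma-voom Per2 was not called.

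Per3 (ENSMUSG00000028957.13), a Period gene that the loop can run without, was at 9.52, 8.13, 6.54, 6.87 and 6.28 CPM contralateral and 8.34, 7.56, 6.40, 4.86 and 6.51 CPM ipsilateral in control mice. The cKO mice had 7.66, 8.39, 8.76, 6.30 and 7.68 CPM contralateral and 5.97, 6.56, 6.89, 5.01 and 5.65 CPM ipsilateral. The ranges overlapped, yet each of the 5 cKO mice was lower on the ipsilateral side, with log2 responses of only -0.44 to -0.33. The fitted log2 fold change was -0.37 in cKO mice (SE 0.136, adjusted p = 0.0461) and -0.15 in control mice (SE 0.136, adjusted p = 0.466). The cKO call was close to the threshold and was lost in 14 of 22 alternatives. Among these were leaving out any of 8 mice (adjusted p = 0.0599 to 0.124) and the fibroblast covariate (-0.19, adjusted p = 0.288), whereas the replicate block kept it (adjusted p = 9.42e-04).

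The Cryptochromes, which inhibit the activator pair directly, were higher on the lesioned side. Cry2 (ENSMUSG00000068742.12) was at 110.5, 116, 114, 105 and 121 CPM contralateral and 138, 134, 136, 133 and 139 CPM ipsilateral in control mice. In cKO mice it was at 110.3, 100.8, 100.9, 118 and 100.1 CPM contralateral and 132, 147, 138, 139 and 134 CPM ipsilateral. The sides did not overlap in either genotype and all 10 mice rose. The log2 fold change was 0.26 in control (SE 0.0445, adjusted p = 1.03e-04) and 0.38 in cKO mice (SE 0.0445, adjusted p = 1.01e-06), and both calls held in each of the 22 alternatives. In the GENCODE annotation 295 of the 6320 exon bases of Cry2 (4.67%) lie opposite exons of D930015M05Rik, which had 4.01 to 5.15 CPM as group means.

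Cry1 rose too, by smaller log2 values. Cry1 (ENSMUSG00000020038.11) was at 16.9, 13.7, 14.6, 14.99 and 14.9 CPM contralateral and 17.8, 16.4, 17.7, 15.5 and 16.3 CPM ipsilateral in control mice. In cKO mice it was at 14.04, 13.3, 13.9, 13.8 and 14.9 CPM contralateral and 16.9, 16.8, 16.7, 16.3 and 15.3 CPM ipsilateral. All 10 mice were higher on the ipsilateral side, with overlap of the sides in control and none in cKO mice. The fitted log2 fold change was 0.16 in control (SE 0.0520, adjusted p = 0.0277) and 0.23 in cKO mice (SE 0.0520, adjusted p = 0.00168). The cKO call held in each of the 22 alternatives, and the control call was lost without H63, H65 or H97 (adjusted p = 0.0836, 0.117 and 0.0508) and on the FPKM scale (adjusted p = 0.0813 and 0.0838).

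The nuclear receptors, which repress Arntl, were lower on the lesioned side of cKO mice. Nr1d2 (ENSMUSG00000021775.12) was at 63.9, 66.4, 66.4, 59.0 and 61.2 CPM contralateral and 53.5, 54.2, 52.6, 47.1 and 46.5 CPM ipsilateral in cKO mice, without overlap. In control mice it was at 60.8, 60.8, 59.8, 56.8 and 60.2 CPM contralateral and 58.6, 58.5, 51.0, 48.1 and 56.2 CPM ipsilateral, with overlap but lower in 5 of 5 mice. The log2 fold change was -0.32 in cKO mice (SE 0.0551, adjusted p = 1.24e-04), a call that held in each of 22 alternatives. In control mice it was -0.13 (SE 0.0551, adjusted p = 0.0802). The control value was called with the mouse as a replicate block (-0.14, adjusted p = 0.00897) and in 4 other of the 22 alternatives.

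Nr1d1 (ENSMUSG00000020889.12) was at 51.4, 61.3, 56.3, 50.3 and 49.99 CPM contralateral and 47.8, 48.1, 46.4, 44.5 and 44.6 CPM ipsilateral in cKO mice, without overlap. In control mice it was at 44.2, 55.7, 46.5, 47.4 and 48.6 CPM contralateral and 41.2, 49.2, 41.4, 49.8 and 46.6 CPM ipsilateral, with overlap and 1 mouse, H96, higher on the ipsilateral side. The log2 fold change was -0.22 in cKO (SE 0.0670, adjusted p = 0.0163) and -0.09 in control mice (adjusted p = 0.376). The cKO call was lost without H64 or H95 (adjusted p = 0.0635 and 0.0724) and with the fibroblast covariate (-0.17, adjusted p = 0.0921). Of the 3077 exon bases of Nr1d1, 263 (8.55%) lie opposite exons of Thra, the thyroid hormone receptor gene, which had 271 to 321 CPM as group means and was itself lower on the ipsilateral side. Whether strand was used in counting was not given, so reads of this stretch cannot be told apart.

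The mice carry numbers from H61 to H65 and from H95 to H100, and every call kept its direction within both ranges. In control mice the mean log2 response in the lower and the higher range was 0.72 and 0.86 for Per1, 0.26 and 0.27 for Cry2, 0.20 and 0.09 for Cry1, and -0.38 and -0.24 for Npas2. In cKO mice it was 0.93 and 0.62 for Per1, 0.40 and 0.37 for Cry2, 0.30 and 0.18 for Cry1, and 0.19 and 0.08 for Clock. For the genes that fell in cKO mice it was -0.36 and -0.37 for Per3, -0.23 and -0.21 for Nr1d1, and -0.27 and -0.35 for Nr1d2. A range holds 2 or 3 mice of a genotype, so no test was run within it.

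Several genes around the core loop were called as well, and changes in this account of them are log2 fold changes. Of 24 further clock regulators, all of them tested, 10 were called higher and 3 lower in control mice and 10 higher and 1 lower in cKO mice, with a median log2 fold change of 0.07 and 0.08. Of all genes tested, 13.8% were called higher and 16.0% lower in control mice, and 16.2% and 15.1% in cKO mice. Nfil3, a repressor that competes with DBP, TEF and HLF at D-boxes, had a mean of 6.56 CPM contralateral and 24.3 CPM ipsilateral in control mice (log2 fold change 1.89, SE 0.0734, adjusted p = 8.51e-14), and of 6.36 and 23.6 CPM in cKO mice (1.89, SE 0.0736, adjusted p = 6.99e-14). Tef, an activator at D-boxes, fell by 0.20 in control and 0.26 in cKO mice, while Dbp and Hlf were not called. Bhlhe41, a repressor at E-boxes, rose in control (0.98) and in cKO mice (1.08), and its relative Bhlhe40 was called higher in control mice (0.29), a call lost in 6 of 22 alternatives, among them leaving out H63 or H97 (adjusted p = 0.0564 to 0.133). Rora, the activator that shares sites with NR1D1 and NR1D2, rose in control (0.70) and in cKO mice (0.52). Rorb was called higher too, but had means of only 0.0231 to 0.158 CPM, and its call was lost in 2 of 21 alternatives in control mice and in 4 of 20 in cKO mice, without H64 or H100 among them.

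Kinases and ubiquitin ligase parts that set the stability of PER and CRY proteins were also called, again with log2 fold changes. In control and cKO mice respectively, Csnk1e rose by 0.35 and 0.47, Csnk1d by 0.26 and 0.29, and Gsk3b by 0.21 and 0.32. Fbxw11, a subunit of a ligase for PER proteins, rose by 0.38 and 0.41, whereas its paralog Btrc was called lower in control mice (-0.10) and was not called in cKO mice. The Btrc call was lost in 9 of 22 alternatives (adjusted p = 0.0552 to 0.155), among them leaving out H62, H63, H65, H95, H96 or H97. Nono, an RNA-binding partner of PER proteins, rose by 0.15 and 0.20. Timeless was called higher in cKO mice (0.21), and lost that call on both FPKM scales (adjusted p = 0.0654 and 0.0664). Cipc, an inhibitor of CLOCK, was called lower in control mice (-0.14), and lost that call without H63, H96 or H97 (adjusted p = 0.0615 to 0.106). The remaining 10 of the 24 genes were called in neither genotype. Beside them, Ahr rose by 0.50 and 0.65 and Arnt by 0.25 and 0.18 in control and cKO mice. Of 8 immediate early genes tested, 5 were called higher in both genotypes, Fos, Junb, Arc, Ier2 and Dusp1, against the shares of all genes called higher given above. The Fos call in control mice was lost without H97 (adjusted p = 0.0602) and with the fibroblast covariate (adjusted p = 0.0563), and the Ier2 call in cKO mice without H61 (adjusted p = 0.0613).

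The cKO genotype was compared with control on each side, using the libraries that also enter the comparisons by injury. No clock gene was called. On the contralateral side edgeR called 0 of the 10 clock genes, where 0.0735% of all genes were called, and 2 clock genes had an unadjusted p under 0.05. These were Nr1d1, with a log2 difference of 0.15 (SE 0.0670, adjusted p = 0.249), and Cry2, with -0.10 (SE 0.0445, adjusted p = 0.264). DESeq2 called 0 of the 10 as well, though it called 1030 genes in all. Without H99 edgeR called Cry2 (-0.14, adjusted p = 0.0391), in a fit that called 3326 genes where the fit with H99 called 21. On the ipsilateral side 0 of the 10 were called, where 0.007% of all genes were, and only Npas2 had an unadjusted p under 0.05, at 0.26 (SE 0.0998, adjusted p = 1.00). DESeq2 again called 0. The groups overlapped in every clock gene named here on the contralateral side, and in Npas2 the cKO values of 3.57 to 4.37 CPM overlapped the control values of 2.94 to 3.70 CPM through 1 mouse of each genotype on the ipsilateral side. The log2 differences of the 10 genes ran from -0.26 (Per2) to 0.15 (Arntl and Nr1d1) contralateral and from -0.16 (Per3) to 0.26 (Npas2) ipsilateral, with SE of 0.0388 to 0.184. For Arntl, with an SE of 0.184, a difference of this size could not be resolved.

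The difference between the genotypes in the response to injury was tested as an interaction, and edgeR called 0 of all genes (0.0%), with 2799 at an unadjusted p under 0.05. DESeq2 called 11 genes, and edgeR called 43 without H99, with 0 clock genes in both. Npas2 had the largest interaction of the clock genes, 0.44 (SE 0.141, unadjusted p = 0.00568, adjusted p = 0.485). Its response was negative in 5 of 5 control mice and positive in 3 of 5 cKO mice. Per3 came next in size with -0.22 (SE 0.192, adjusted p = 0.716). Nr1d2, the other clock gene with an unadjusted p under 0.05, had -0.19 (SE 0.0779, unadjusted p = 0.0258, adjusted p = 0.498), and its responses lay between -0.24 and -0.05 in control mice and between -0.40 and -0.26 in cKO mice, without overlap. DESeq2 called 0 clock genes and 2 had an unadjusted p under 0.05 there too. For Per1 the interaction was -0.03 (SE 0.224), and for Arntl 0.04 (SE 0.260). That Npas2 was called in one genotype, and Clock, Per3, Nr1d1 and Nr1d2 in the other, therefore does not show a difference between the genotypes.

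Some clock genes differed between mice of the same group. Both sides of a mouse deviated together from their group means for Arntl, the Period genes and the nuclear receptors, by the correlations given further on, while no such relation was found for Clock, Npas2, Cry1 and Cry2. An edgeR F-test of all mouse terms (8 degrees of freedom, in a fit with group means) called 2 of the 10 clock genes, where 0.406% of all genes were called. These were Per2 (F = 15.7, adjusted p = 0.00900) and Arntl (F = 15.1, adjusted p = 0.0106). Per3 (F = 8.44, adjusted p = 0.0826), Per1 (F = 6.21, adjusted p = 0.197), Nr1d2 (F = 4.82, adjusted p = 0.248) and Nr1d1 (F = 4.79, adjusted p = 0.251) had an unadjusted p under 0.05 but were not called. For Clock, Npas2, Cry1 and Cry2 the adjusted p was 0.773 to 0.902. The call of Arntl was lost without H65 (adjusted p = 0.0635) or H96 (adjusted p = 0.102), and that of Per2 without H62 (adjusted p = 0.0547) or H96 (adjusted p = 0.0879). Per1 was called without H64 (adjusted p = 0.0481), and Per3 without H96 (adjusted p = 0.0348) and with no filter on low counts (adjusted p = 0.0131).

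The same pattern was seen as a correlation, over 10 mice, of the contralateral with the ipsilateral deviation from the group mean. Pearson's r was 0.910 for Arntl (exact permutation within genotype, two-sided, unadjusted p = 0.00125), 0.900 for Per2 (p = 0.00333), 0.855 for Per1 (p = 0.00542) and 0.836 for Nr1d2 (p = 0.00306). Spearman's rho was 0.891 for Arntl (p = 0.00361), 0.879 for Per2 (p = 0.00368), 0.964 for Per1 (p = 2.78e-04) and 0.794 for Nr1d2 (p = 0.00660) by the same exact permutation. In all 4 the relation remained when the 2 mice farthest from the median were left out, with r of 0.820, 0.787, 0.935 and 0.746 in the same order. It also remained with deviations taken within the range of mouse numbers, with r of 0.892 (exact p = 0.0208), 0.888 (exact p = 0.0139), 0.908 (exact p = 0.00694, the smallest that 144 pairings allow) and 0.761 (exact p = 0.0278).

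Per3 and Nr1d1 were weaker. Per3 had r = 0.786 (exact permutation p = 0.0167) and rho = 0.818 (p = 0.0108), and Nr1d1 had r = 0.636 (p = 0.0355) and rho = 0.697 (p = 0.0326). Without 2 mice r was 0.632 for Per3 and 0.523 for Nr1d1, and within the range of mouse numbers it was 0.691 (exact p = 0.0972) and 0.750 (exact p = 0.0694). For Clock r was 0.00766 (exact p = 0.982), for Cry1 0.0884 (exact p = 0.894), for Cry2 0.0237 (exact p = 0.959) and for Npas2 -0.303 (exact p = 0.417). Over all 28564 genes the median r was 0.120, with quartiles of -0.160 and 0.392, and over the 10 clock genes it was 0.711. These were 10 relations of 19 computed over the mice.

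**Figure D3:**
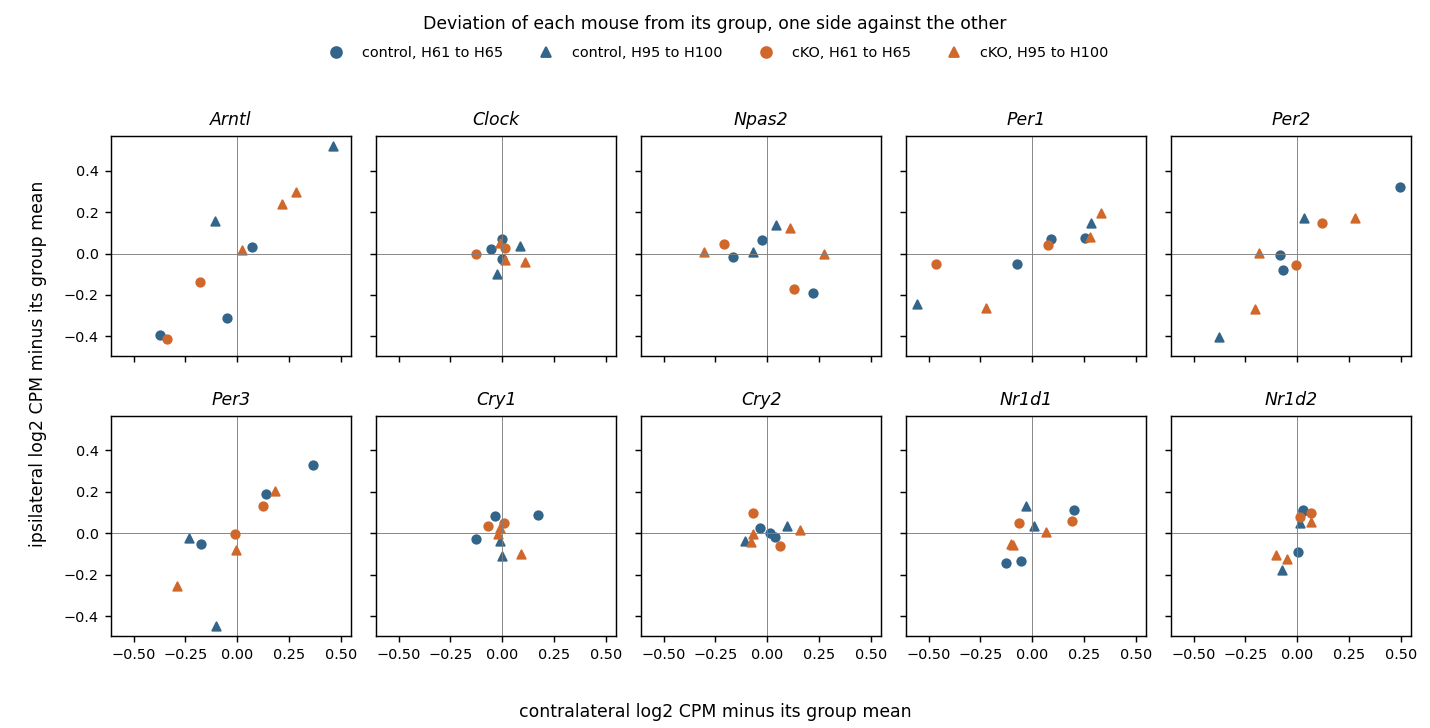
Deviation of each of 10 mice from its group mean, in log2 CPM, on the contralateral side (horizontal axis) and on the ipsilateral side (vertical axis), for each clock gene. Each point is 1 mouse, coloured by genotype and shaped by the range of mouse numbers. The points of Arntl, Per1, Per2 and Per3 run along the diagonal. Those of Clock, Cry1, Cry2 and Nr1d2 lie close to the centre.

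By Pearson's r no repressor or nuclear receptor was related to Arntl over the mice at an exact p under 0.05, while Npas2 was. For Npas2 itself the sides of a mouse did not deviate together (side-to-side r = -0.303, exact permutation p = 0.417). The mean deviation of both sides for Arntl was highest in H96 (0.49), H99 (0.29) and H100 (0.23) and lowest in H65 (-0.38) and H61 (-0.38). For Per2 it was highest in H62 (0.41) and H95 (0.23) and lowest in H96 (-0.39) and H99 (-0.24). Over 10 mice r with Arntl was -0.639 for Nr1d2 (exact permutation p = 0.0683), -0.627 for Per2 (p = 0.0760), -0.533 for Cry1 (p = 0.187), -0.479 for Per3 (p = 0.205) and -0.413 for Per1 (p = 0.262). Spearman's rho was -0.564 for Nr1d2 (exact p = 0.120), -0.661 for Per2 (exact p = 0.0608), -0.697 for Cry1 (exact p = 0.0447), -0.503 for Per3 (exact p = 0.186) and -0.224 for Per1 (exact p = 0.556). Npas2, like Arntl an activator, had r = 0.669 (exact p = 0.0406) and rho = 0.721 (exact p = 0.0273), and r = 0.554 without H65 and H96. Its rho was not under 0.05 with RLE size factors (0.636, exact p = 0.0729) or on log2(FPKM + 1) (0.527, exact p = 0.149), while its r was (0.658, exact p = 0.0443, and 0.678, exact p = 0.0450). With RLE size factors rho passed for Per2 (-0.709, exact p = 0.0408) and Cry1 (-0.758, exact p = 0.0118). For Nr1d1, Clock and Cry2 r was 0.157, -0.193 and -0.204 (exact p = 0.698, 0.623 and 0.581), with rho of 0.358, -0.127 and -0.103 (exact p = 0.371, 0.760 and 0.796). Without H65 and H96 r was -0.755 for Nr1d2, -0.635 for Per2, -0.509 for Per3, -0.437 for Cry1 and -0.0376 for Per1. Within the range of mouse numbers it was -0.343 for Nr1d2 (exact p = 0.528), -0.611 for Per2 (exact p = 0.215), -0.764 for Per1 (exact p = 0.0833) and 0.666 for Npas2 (exact p = 0.0486). For the others it was -0.105 for Per3, -0.487 for Cry1, -0.638 for Clock, -0.227 for Cry2 and 0.446 for Nr1d1, with exact p of 0.819, 0.271, 0.243, 0.743 and 0.326 in that order. The 9 p-values are unadjusted, and every value shares its libraries with that of Arntl.

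The mean of Arntl was higher over the mice H95 to H100 than over H61 to H65, but the difference did not pass adjustment. With the counts of both sides summed per mouse, the log2 difference was 0.44 (SE 0.109, edgeR unadjusted p = 0.00216), but over all genes no gene was called (0.0%, with 798 at an unadjusted p under 0.05) and the adjusted p of Arntl was 1.00. Nr1d2, at -0.09, had an unadjusted edgeR p of 0.0429, and no other clock gene was under 0.05. The contralateral means of Arntl were 3.15 and 3.91 CPM in the lower and higher range of control mice and 3.17 and 4.29 CPM in those of cKO mice. On that side the ranges overlapped in control mice, at 2.61 to 3.56 and 3.14 to 4.67 CPM, and in cKO mice they did not, at 2.99 to 3.35 and 3.85 to 4.62 CPM. On the ipsilateral side the ranges were separate in control mice, at 2.53 to 3.396 and 3.71 to 4.78 CPM, and in cKO mice, at 2.87 to 3.48 and 3.88 to 4.72 CPM.

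Glucocorticoid-responsive genes also differed from mouse to mouse, and 6 of 9 were called in the F-test of the mouse terms, where 0.406% of all genes were called: Zbtb16 (F = 52.3, adjusted p = 5.18e-05), Ddit4, Errfi1, Tsc22d3, Fkbp5 and Sgk1. Over 13 alternatives the calls of Zbtb16 and Ddit4 held, that of Fkbp5 was lost without H95, H96 or H97, that of Tsc22d3 without H96, that of Sgk1 without H97 and that of Errfi1 without H100. Of the 24 further clock regulators 0 were called by the same edgeR test, with 7 at an unadjusted p under 0.05, led by Usp2 (F = 8.02) and Dbp (F = 7.64). The mouse with the lowest Per1, H96 (mean deviation -0.40), was below its group mean in all 9 of these genes, at -0.65 for Zbtb16, -0.27 for Sgk1 and -0.22 for Fkbp5. H97 and H95, at 0.21 and 0.18 for Per1, had the highest Zbtb16 deviations, 1.17 and 0.94. Other mice differed. H64, at -0.26 for Per1, was above its group mean in Mt2 (0.29), Zbtb16 (0.27), Mt1 (0.18) and Fkbp5 (0.01). It was below it in the rest of the list. H62, at 0.16 for Per1, was below its group mean in Mt2 (-0.24), Zbtb16 (-0.12) and Mt1 (-0.10), and above it in the rest. H100, with the highest Per1 deviation of 0.26, was above its group mean in 6 of the 9, led by Errfi1 (0.33), Ddit4 (0.21) and Sgk1 (0.18), and below it in Zbtb16 (-0.62), Mt2 (-0.12) and Fkbp5 (-0.03). Their part in the Per1 values was not tested.

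**Figure D4:**
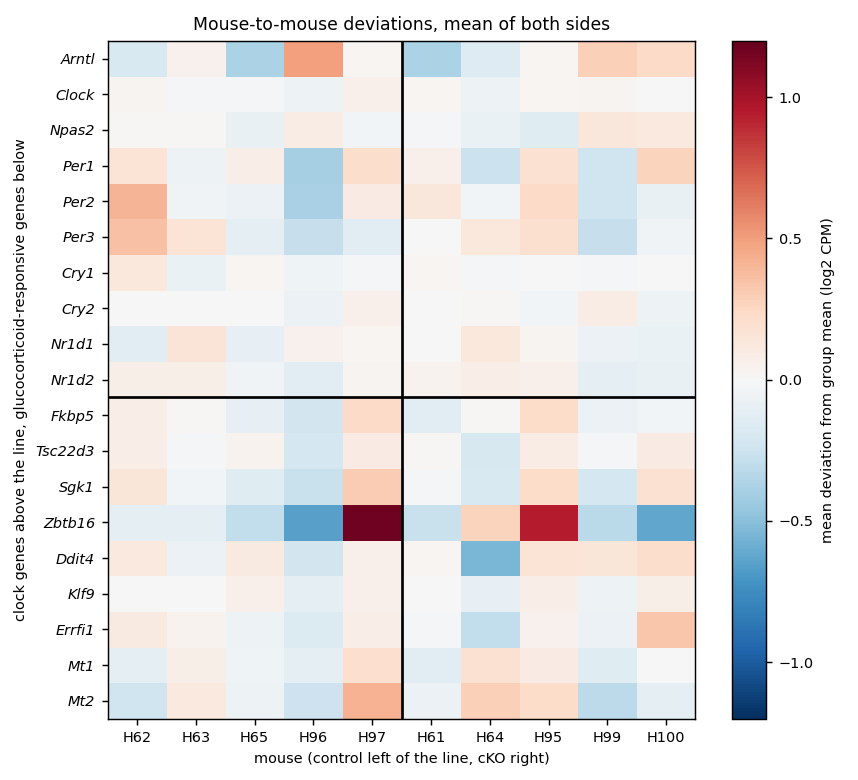
Mean deviation from the group mean over both sides (colour, log2 CPM, blue below and red above the group mean) for the 10 clock genes and 9 glucocorticoid-responsive genes in 10 mice. Control mice stand left and cKO mice right of the vertical line. H96 is red for Arntl (0.49) and blue for Per1 and Per2 (-0.40 and -0.39). The bands of Clock, Cry1, Cry2, Npas2, Nr1d1 and Nr1d2 are pale.

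The genes most like Arntl, Nr1d1 and Per1 were ranked by Pearson's r of the group-centred log2 CPM over 20 libraries, among 11914 genes for Arntl and 11913 for the others, keeping means of 5 CPM or more. The libraries come in pairs from 10 mice, so these values are descriptions. For Arntl the highest were Ddx17 (0.825), Ptpn5 (0.803) and Phyhip (0.802) and the lowest Pqlc1 (-0.791), Dusp19 (-0.789) and Zfp759 (-0.774), all beyond the clock genes themselves, of which Nr1d2 was at -0.599 and Per2 at -0.563. For Per1 they were Usp2 (0.848), Sgk1 (0.844) and Net1 (0.840) at one end and Cxcr4 (-0.798), Relt (-0.783) and Pik3r5 (-0.769) at the other. Usp2, a deubiquitinase and itself clock-controlled, stands in the list of regulators, and Sgk1 in the glucocorticoid list. For Nr1d1 they were Cav2 (0.894), Glod4 (0.861) and H3f3b (0.819), and Ica1l (-0.838), Colgalt1 (-0.813) and Phf13 (-0.811). Among the clock genes Nr1d1 was at -0.683 with Cry1, and Per1 at 0.616 with Per2.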

How the data were processed

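The labels' protocols describe stranded libraries from mRNA of 20 samples, sequenced in pairs of 150 bp on a NovaSeq X. The submitters' processing notes name HISAT2, Picard and the builds mm10 and mm39, with no role; the counting program, annotation release and strand setting are not given in the sources used here. The authors deposited whole-number exonic counts per gene, not normalized, and a table of FPKM. In 21541 of 21541 genes checked, with at least 1000 counts, the deposited FPKM equalled CPM divided by 1 length per gene (within 0.001 as a fraction), which was within 5% of the whole gene span for 93.0% of 18805 matched genes, so FPKM served only as an alternative within genes. Identifiers were matched without version to GENCODE M21 symbols, giving 51487 of 78258, with 98.1% of the counts. Libraries held 76150333 to 118537209 counts. Replicate pairs differed by a chi-square of 4.97 to 52.7 per degree of freedom over 40 pairs, so all samples were kept as separate replicates. Of counts from 1 to 20, 63.8% were even. Reads carry no molecular identifiers. The p-values of the main fit rest on the spread between libraries of a group, each from another mouse. They do not use the pairing of sides. Those of the mouse terms and of the fixed replicate block rest on the spread left between the sides of a mouse. Those of the range of mouse numbers rest on the spread between mice.

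The tests were run on the counts with edgeR 4.0.16 in R 4.3.3: filterByExpr (minimum count 10, minimum total 15), TMM, a robust quasi-likelihood F-test on 20 libraries in 4 groups of 5 with 1 mean per group, and Benjamini-Hochberg adjustment over 28564 genes in each comparison. The procedure was tested on simulated data. Log2 CPM for correlations used a prior count of 2, with 14400 exact permutations within genotype. Alternatives were DESeq2 1.42.0, limma 3.58.1 on log2(FPKM + 1) and log2(FPKM + 0.1), RLE size factors, the mouse as a fixed block or as a random effect in limma-voom, a minimum mean CPM of 1, a covariate for the range of mouse numbers, no filter, fits of only the compared libraries, leaving out each mouse, and, chosen after seeing the data, fibroblast or muscle markers as a covariate. Both libraries of a mouse come from the same animal, by the mouse number in the library names, and pair on that ground; the correlation of their deviations across genes had a median of 0.186 (-0.0546 to 0.361), over 0.1 in 7 of 10 mice.

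The 10 clock genes, the lists (24 clock regulators, 9 glucocorticoid-responsive, 9 immediate early genes, markers of cell types) and the tests were chosen with earlier results of these data known. Named were all 10 clock genes, Ahr, Arnt, members of these lists that were called in the comparison described, and the 3 genes highest and 3 lowest in likeness to Arntl, Nr1d1 and Per1 among genes with a symbol and at least 5 CPM, predicted genes skipped. Usp2 and Dbp in the mouse test, Thra, D930015M05Rik and other uncalled list members were named outside that rule, after their values were seen. One label field names a spinal cord injury and one title shortens a mouse number; the protocol text and the library name were used.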

Additional observations from a re-analysis of the deposited data

Results flagged for a closer look

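Over 60 groups of 5 values (CPM per group and log2 responses per genotype of the clock genes), 4 held a mouse far from the others by Dixon's ratio, with a critical value of 0.71. Chance gives about 1 in 20, that is 3. The log2 response of Npas2 in control mouse H62 was -0.74, against -0.25 to -0.18 in the other control mice (ratio 0.872). The log2 response of Per1 in cKO mouse H64 was 1.16, against 0.55 to 0.71 (ratio 0.735). The log2 response of Per3 in cKO mouse H100 was -0.44, against -0.36 to -0.33 (ratio 0.719). The contralateral Nr1d2 of control mouse H96 was 56.8 CPM, against 59.8 to 60.8 (ratio 0.741).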

How the results depend on the processing

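The calls of Per1 and Cry2 in both genotypes and of Cry1 and Nr1d2 in cKO mice held in each of the 22 alternatives. Of the clock genes called in cKO mice, 4 of 7 stayed past the threshold with the fibroblast markers as a covariate, chosen after seeing the data, and 4 to 7 when a mouse was left out, with 4 without H64 or H95. In control mice the fibroblast covariate gave 6 called clock genes in place of 4, and leaving out a mouse 3 to 4. With the mouse as a replicate block, 6 clock genes were called in control mice and 7 in cKO mice as a fixed effect, and 5 and 7 as a random effect in limma-voom. The fixed block added Per2 and Nr1d2 in control mice and the random effect Nr1d2 alone, and neither changed any other call of a clock gene. Over all genes the contralateral comparison of genotypes rested on the setting: 21 genes were called, 7 higher and 14 lower, against 1030 with DESeq2 (670 and 360), 50 with no filter, 45 with a mean CPM of at least 1, 6 and 7 on log2(FPKM + 1) and log2(FPKM + 0.1), 2 with only the libraries compared, 4 with the fibroblast and 72 with the muscle covariate, and 4 to 3326 without 1 mouse (H95 and H99). Of the clock genes it called 0 to 1 without 1 mouse. The interaction called 0 genes, 11 with DESeq2, and 0 to 43 without 1 mouse, 43 without H99. In control mice the split of calls for injury was 3956 higher and 4584 lower, and 4566 and 4235 with only the libraries compared; in cKO mice it was 4632 and 4307, and 4537 and 2930 with no filter. The test of the mouse terms called 116 genes, 304 with no filter and 66 to 134 without 1 mouse, and 2 clock genes, 1 to 3 without 1 mouse. Side-to-side r of Per3 and Nr1d1 within the range of mouse numbers was 0.691 and 0.750, past no threshold. Without 2 mice, r was 0.260 for Clock, -0.646 for Cry1 and -0.283 for Cry2, and r with Arntl was 0.105 for Clock, -0.0376 for Per1, 0.166 for Cry2 and -0.141 for Nr1d1. With RLE size factors r of Clock was -0.00852. Of the values of single clock genes under alternatives, 1122 kept direction and side of the threshold, 34 lost a call, 12 gained 1 and 32 uncalled values changed sign. The cause of these changes was not tested. Arntl, the clock gene of lowest mean level per kilobase of merged exon, had 212 to 563 counts per library. Its SE of 0.184 for injury in control mice comes from the fit without the block; its responses per mouse had an SD of 0.191 in control and 0.0443 in cKO mice.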
